A study of Danio rerio with 18 samples.

Results

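Muscle excitation and calcium handling genes were followed through the RNA of the zebrafish trunk at 28 hours post-fertilization (hpf). Members were the gene IDs whose symbol, case ignored, was atp2a1, atp2a1l, CASQ1, CACNA1S, CACNB1 or spegb, and the rule found 8 of the 33737 gene IDs counted. CASQ1 and CACNA1S each stood for 2 IDs, which are given by ID because the files do not tell the duplicates apart by name. The members were selected on counts of these same libraries, most directly on their levels in endothelial RNA, so their differences between endothelial pools are a description without a test.

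Skeletal muscle contracts when an electrical signal at the cell membrane is turned into a release of calcium. The voltage sensor in the transverse tubule, a channel complex built around CACNA1S with CACNB1 as its beta subunit, moves with the membrane potential and opens the ryanodine receptor (RYR1) of the sarcoplasmic reticulum. CASQ1, a calsequestrin, binds calcium inside that store, and the pump SERCA1, the product of ATP2A1, returns calcium to it so that the fibre relaxes. SPEG is a kinase of striated muscle that is known from mice and humans to be needed where tubule and store meet. The mark N6-methyladenosine (m6A) is placed on messenger RNA by a complex whose catalytic subunit is Mettl3, and Ythdf2 is known to bind marked transcripts and to shorten their life.

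Counts per gene were available for 16 libraries in 8 groups of 2. They comprised Ythdf2 RIP-seq of embryos that received ythdf2-Flag mRNA, MeRIP-seq of mettl3 morphant and of control embryos (each as m6A immunoprecipitate, IP, and as input), and RNA-seq of endothelial cells of mettl3 morphant, ythdf2 morphant and control embryos. Morphants are embryos injected with a morpholino, an antisense oligomer that blocks translation or splicing of its target. Controls and RIP embryos are labelled normal in genotype, all tissue is trunk, and the sources used here give neither the morpholinos, any control injection and the strain nor how endothelial cells were obtained. The labels do not say whether the 2 libraries of a group came from separate batches of embryos, so p-values measure the spread between these libraries, which may be technical.

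Gene counts summed to 32800475 to 78278767 in MeRIP libraries, 7901401 and 5273087 in RIP libraries and 3565193 to 4748921 in endothelial libraries, and levels are given as counts per 1000000 gene counts (CPM). The 2 endothelial libraries of a group differed by about the sampling noise (chi-square per degree of freedom 1.01 to 1.04, against 59.4 to 338 for the other pairs), so they were summed and counted as 1 pool per group. By the chi-square test over genes the small excess over 1 was itself detectable in the ythdf2 morphant and control pairs. METTL3 had 1105 counts in the endothelial pool labelled mettl3 morphant, 224 in the pool labelled ythdf2 morphant and 184 in the control pool. YTHDF2 had 186 counts in the pool labelled ythdf2 morphant, 56 in the pool labelled mettl3 morphant and 70 in the control pool. In the inputs, METTL3 was at 15.7 and 48.2 CPM in libraries labelled mettl3 morphant and at 35.8 and 19.6 CPM in those labelled control. A morpholino need not lower the RNA of its target. Each target RNA was highest, not lowest, in the pool named for it, and METTL3 did not separate the inputs by label. Groups are therefore given as labelled throughout.

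Endothelial markers summed to 7512 CPM in the pool labelled mettl3 morphant, 7604 CPM in the pool labelled ythdf2 morphant and 2842 CPM in the control pool, against 249.6 and 344.4 CPM in control trunk inputs. Markers of the sarcomere, the contractile lattice of muscle, summed to 3274, 12262 and 47162 CPM in the same 3 pools in that order, and to 36028 and 33053 CPM in control trunk inputs. The control endothelial pool thus held both endothelial RNA and, per unit of depth, as much sarcomere RNA as the whole trunk. Of the 4 heart muscle markers, MYL7, cmlc1 and nppa had 0 counts in every pool, and MYH7 had 9 counts in the control pool only. The 4 markers summed to just 2.36 and 2.79 CPM in control trunk inputs, so their counts say little about heart muscle RNA in the pools.

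Taken as a sum, the 8 members made up 0.0523% of gene counts in the pool labelled mettl3 morphant, 0.395% in the pool labelled ythdf2 morphant and 1.59% in the control pool. In the control trunk inputs they made up 1.22% and 1.44%. Most of this was atp2a1 alone, which supplied 0.0492%, 0.381% and 1.52% of gene counts in the 3 pools.

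**Figure D1:**
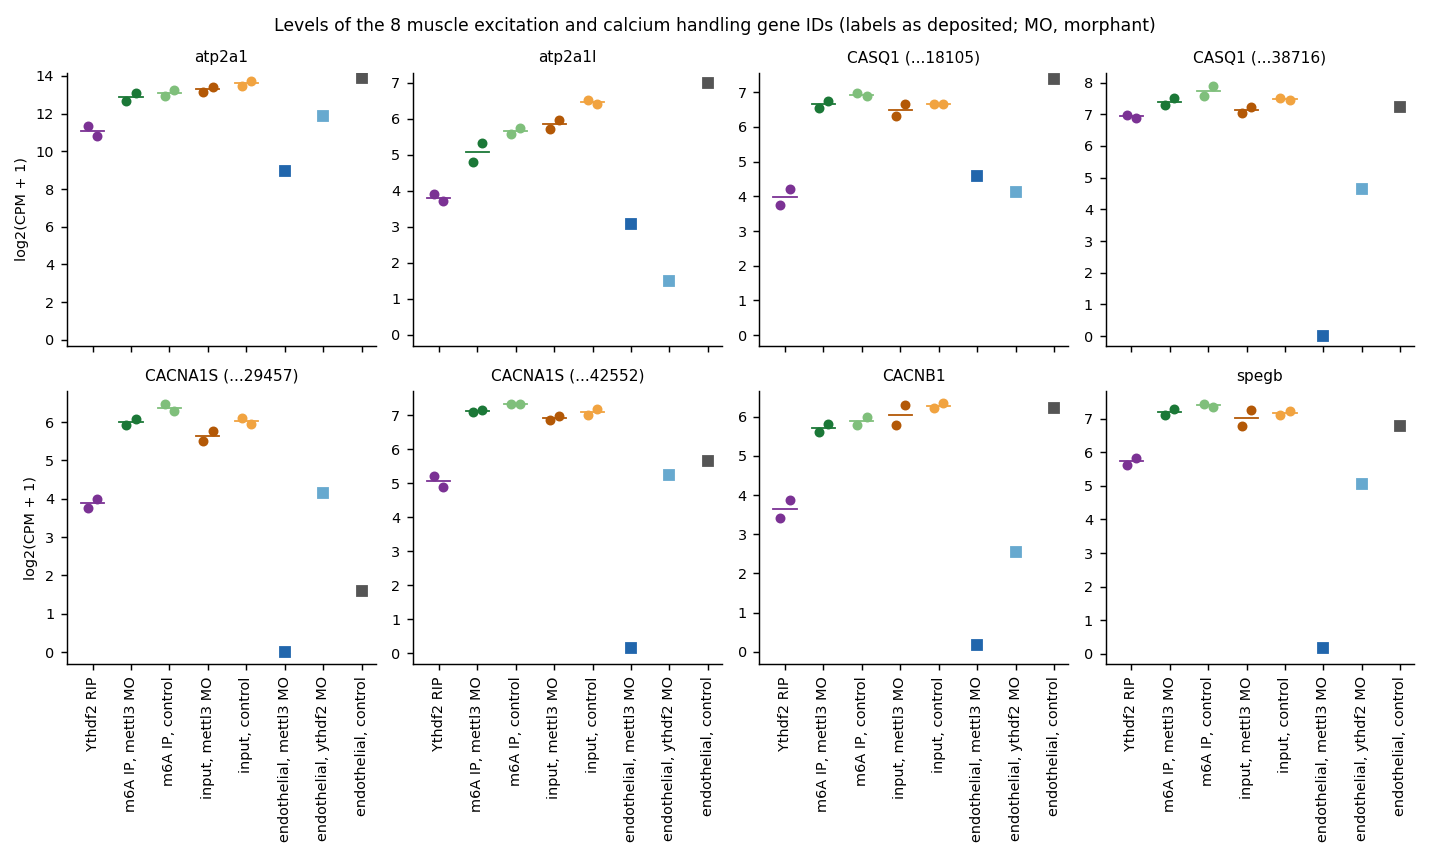
Level of each member as log2(CPM + 1), 1 panel per gene ID (last 5 digits shown where a symbol has 2 IDs). Circles are libraries with their mean as a line, squares are endothelial pools, and the vertical scales differ. In the pool labelled mettl3 morphant every member is below the control pool, and in the pool labelled ythdf2 morphant CACNA1S (ENSDARG00000029457) is above it.

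The 2 calcium pump genes among the members were low in both morphant pools. The main pump gene, atp2a1, had 491.7 CPM in the pool labelled mettl3 morphant, 3812 CPM in the pool labelled ythdf2 morphant and 15223 CPM in the control pool. On the log2 scale of TMM-scaled counts, atp2a1 was lower than in the control pool by 37.3-fold (log2 -5.22) under the mettl3 label and by 4.55-fold (log2 -2.19) under the ythdf2 label. Its relative atp2a1l showed the reverse order of the morphant pools, with 7.48 CPM under the mettl3 label, 1.82 CPM under the ythdf2 label and 127 CPM in the control pool. The fold was 20.4 for atp2a1l under the mettl3 label (log2 -4.35) and 79.4 under the ythdf2 label (log2 -6.31, 95% exact binomial interval -7.22 to -5.53). The 2 pump genes were therefore not lower in proportion. The ratio of atp2a1 counts to atp2a1l counts was 65.8 in the pool labelled mettl3 morphant, 2097 in the pool labelled ythdf2 morphant and 120.3 in the control pool, while it lay between 124.0 and 237.4 in the MeRIP libraries.

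The calcium store gene CASQ1 was also lower in both morphant pools, and its 2 IDs again differed in degree. CASQ1 (ENSDARG00000018105) had 23.2 CPM in the pool labelled mettl3 morphant, 16.5 CPM in the pool labelled ythdf2 morphant and 164 CPM in the control pool. On TMM-scaled counts it was 8.53-fold and 11.4-fold lower than control under the mettl3 and ythdf2 labels. CASQ1 (ENSDARG00000038716) had 0 counts in the pool labelled mettl3 morphant, 171 in the pool labelled ythdf2 morphant and 1402 in the control pool. With the floor set at 3 counts for a pool, CASQ1 (ENSDARG00000038716) was 471-fold lower under the mettl3 label (log2 -8.88). The upper end of the exact interval for this ratio was log2 -8.58. Under the ythdf2 label CASQ1 (ENSDARG00000038716) was 7.10-fold lower. The pool labelled mettl3 morphant thus kept 183 counts of the first ID and none of the second.

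The voltage sensor genes were nearly absent from the pool labelled mettl3 morphant. CACNB1 had 1 count there, 35 counts in the pool labelled ythdf2 morphant and 690 counts in the control pool. The ratio for CACNB1 under the mettl3 label was log2 -9.44 (95% interval -14.75 to -6.96), and under the ythdf2 label it was log2 -4.09 (-4.63 to -3.60). CACNA1S (ENSDARG00000042552), a channel subunit that forms the pore, likewise had 1 count in the pool labelled mettl3 morphant, against 266 counts in the pool labelled ythdf2 morphant and 462 counts in the control pool. Its log2 ratio was -8.86 (-14.17 to -6.38) under the mettl3 label and only -0.59 (-0.81 to -0.37) under the ythdf2 label.

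The other pore subunit ID went the opposite way under the ythdf2 label. CACNA1S (ENSDARG00000029457) had 0 counts in the pool labelled mettl3 morphant, 119 counts in the pool labelled ythdf2 morphant and 19 counts in the control pool. With the floor of 3 counts it was 6.39-fold lower under the mettl3 label (upper end of the 95% interval log2 -2.23). Under the ythdf2 label it was 7.23-fold higher (log2 2.85, 95% interval 2.15 to 3.64). In counts, the 2 CACNA1S IDs stood at a ratio of 0.447 in the pool labelled ythdf2 morphant and 0.0411 in the control pool. In the MeRIP libraries that ratio lay between 0.383 and 0.555, so of the 2 pools with more than 1 count of either ID the control pool stood apart.

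The kinase gene spegb had 1 count in the pool labelled mettl3 morphant, 231 counts in the pool labelled ythdf2 morphant and 1035 counts in the control pool. The log2 ratio was -10.03 (95% interval -15.33 to -7.55) under the mettl3 label and -1.96 (-2.17 to -1.75) under the ythdf2 label.

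**Figure D2:**
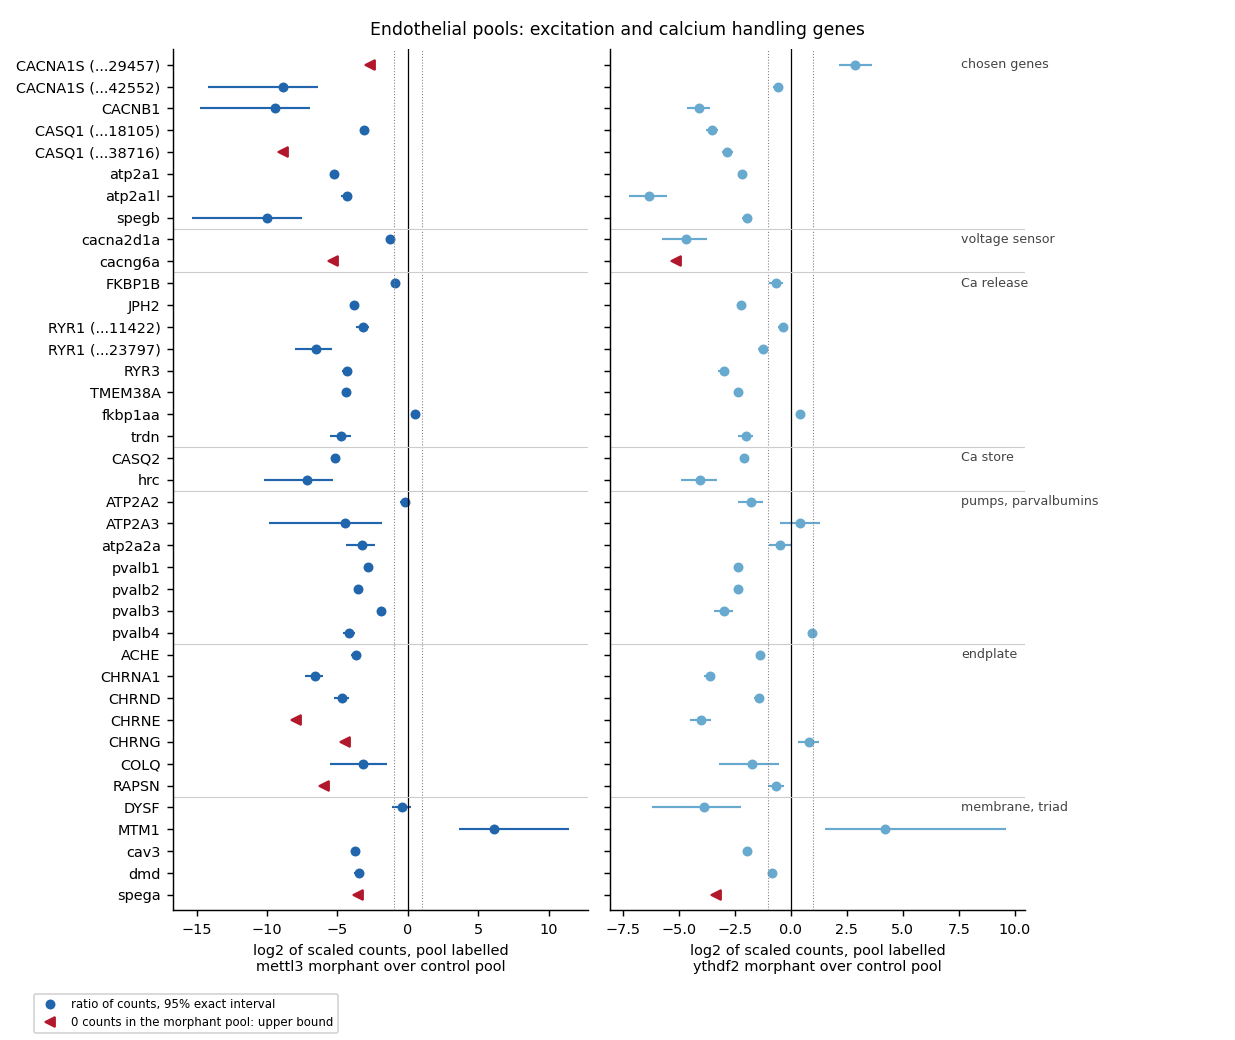
Log2 ratio of scaled counts for each member and for the listed excitation and calcium genes with at least 20 counts in a pool, pool labelled mettl3 morphant over control pool on the left and pool labelled ythdf2 morphant over control pool on the right. Bars are 95% exact intervals for counting error, and dotted lines mark 2-fold. Triangles, marked upper bound in the key, are ratios at the floor of 3 counts where the morphant pool had 0 counts. The upper ends of the exact intervals for these ratios lie higher than the triangles. All 8 members lie left of the dotted line at -1 on the left, and 6 of 8 on the right.

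Counting a ratio of at least 2-fold, 8 of 8 members were lower under the mettl3 label, where 31.2% of the 13933 genes with 20 counts were lower and 19.5% higher. Under the ythdf2 label, 6 of 8 members were lower, where 32.0% of genes were lower, and 1 was higher, where 21.4% were higher. The higher member was CACNA1S (ENSDARG00000029457), which reached 20 counts only in the pool labelled ythdf2 morphant, where it was high. Its ratio under the mettl3 label rests on the floor of 3 counts against 19 counts in the control pool. The 2 comparisons share the control pool. Since these ratios guided the choice of the members, nothing is read from the counts.

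Among 34 other genes of excitation and calcium handling, 29 had enough counts. Of these, 24 were lower and 1 higher under the mettl3 label (median log2 -3.78), and 20 were lower and 1 higher under the ythdf2 label (median log2 -2.01), against medians of -0.10 and -0.14 over all genes. Under the mettl3 label, genes of the motor endplate ranged from log2 -7.98 for CHRNE to -3.18 for COLQ, which anchors acetylcholinesterase. The CHRNE value rests on the floor, and the upper end of its exact interval was log2 -7.67. Under the ythdf2 label these genes ranged from -4.02 for CHRNE to 0.80 for CHRNG. The acetylcholine receptor subunit gene CHRNE had 0 counts under the mettl3 label, 40 counts under the ythdf2 label and 749 counts in the control pool, and CHRNA1 had 22, 152 and 2159 counts in the same pools. The calcium store genes hrc (histidine-rich calcium binding protein) and CASQ2 (a second calsequestrin) stood at log2 -7.17 and -5.17 under the mettl3 label and at -4.04 and -2.08 under the ythdf2 label. Triadin (trdn), which ties calsequestrin to the release channel, stood at -4.73 and -2.01. Further subunit genes of voltage-gated calcium channels were low as well: cacng6a had 0 counts under the mettl3 label, 0 under the ythdf2 label and 119 in the control pool, while cacna2d1a had 123, 10 and 291 counts and was, like atp2a1l, lowest under the ythdf2 label. The caveolin gene of muscle, cav3, had 210, 640 and 2854 counts in these pools, and TMEM38A, which encodes a potassium channel of the store membrane, had 509, 1749 and 10381.

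Several genes did not follow, or did so under 1 label only. Among the other calcium pump genes, ATP2A2 stood at log2 -0.17 under the mettl3 label and -1.79 under the ythdf2 label. In the same order, atp2a2a stood at -3.26 and -0.48, and ATP2A3 at -4.47 and 0.39. The gene fkbp1aa, for an immunophilin found in many cell types, stood at log2 0.53 under the mettl3 label and 0.40 under the ythdf2 label. The parvalbumins are soluble calcium buffers of fast muscle, and pvalb4 had 48 counts under the mettl3 label, 1434 under the ythdf2 label and 867 in the control pool, whereas pvalb1 and pvalb2 were more than 2-fold lower in both morphant pools. The gene of the gamma acetylcholine receptor subunit, CHRNG, likewise had 0, 98 and 65 counts in these pools. MTM1, a phosphatase of membrane lipids, was the listed gene that was at least 2-fold higher under both labels, with 71, 16 and 1 counts. It reached 20 counts only in the pool labelled mettl3 morphant. The release channel RYR1, described beside the list because it has 2 IDs, stood at log2 -3.21 for RYR1 (ENSDARG00000011422) and -6.54 for RYR1 (ENSDARG00000023797) under the mettl3 label, and at -0.36 and -1.24 under the ythdf2 label.

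Cell type markers also differed between the pools, in directions that varied with the cell type. Of the sarcomere markers with enough counts, 22 of 24 were lower under the mettl3 label (median log2 -4.25) and 18 of 24 lower and 2 higher under the ythdf2 label (median log2 -2.13). The muscle regulators MYOD1 and MYF5, together with TNNT1, MYBPC1 and mb, had 0 counts in the pool labelled mettl3 morphant. TNNT1 and mb were also at 0 in the pool labelled ythdf2 morphant, and MYBPC1 and mb in the control pool. Of 14 endothelial markers, 7 were higher and 0 lower under the mettl3 label, and 9 were higher and 2 lower under the ythdf2 label. The 2 lower genes were cdh5, with 212, 23 and 242 counts in the 3 pools, and KDR, with 96, 26 and 125 counts. All 6 red cell markers with enough counts were lower under each label, with sums of 50.8, 19.0 and 187 CPM. Neural markers summed to 784, 422 and 794 CPM, and epidermal markers to 2419, 5274 and 2511 CPM. Most of the epidermal sum was krt8 alone, with 2076, 4461 and 1612 CPM. Of 9 epidermal markers with enough counts, 4 were lower and 0 higher under the mettl3 label. Under the ythdf2 label 2 of the 9 were lower and 3 higher. The part of these shifts in the members' ratios was not tested, and fewer muscle cells in a pool and less of these RNAs per muscle cell cannot be told apart.

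**Figure D3:**
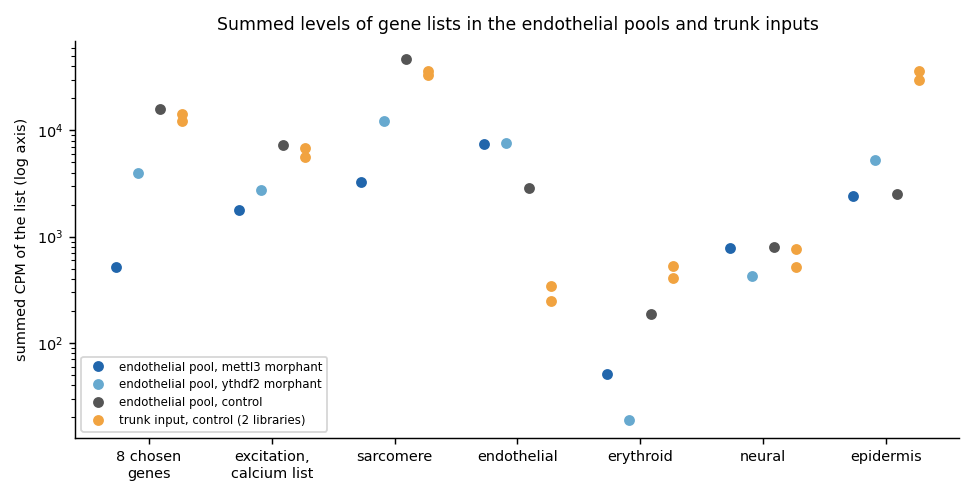
Summed CPM (log axis) of the 8 members, of the 34 other excitation and calcium genes and of 5 marker lists in the 3 endothelial pools and in the 2 control trunk inputs. Sums of the muscle lists are lowest in the pool labelled mettl3 morphant and highest in the control pool, and the sum of endothelial markers is lowest among pools in the control pool.

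Set against the control trunk inputs, the control pool held some members at more than the trunk level and others well under it. CASQ1 (ENSDARG00000018105) had 164 CPM in the control pool, against 99.6 and 100.1 CPM in the control inputs, a ratio of 1.64 to their mean. The ratio was 1.43 for atp2a1l and 1.22 for atp2a1, so these 2 pump genes were above the trunk level as well. CACNB1 stood at 0.959, CASQ1 (ENSDARG00000038716) at 0.836 and spegb at 0.763. Both CACNA1S IDs were lower in the pool, with 49.0 CPM against 127 and 146 CPM for CACNA1S (ENSDARG00000042552) and 2.02 CPM against 68.1 and 60.6 CPM for CACNA1S (ENSDARG00000029457). The second of these was 31.9-fold lower in the control pool than in the inputs, the widest gap among the members. Thus 5 of 8 members were lower in the pool by total counts and 3 higher, and the direction of CACNB1 turned with TMM scaling (ratio 1.08). Of the 31 other excitation and calcium genes with counts, 11 were above and 20 below the trunk level (median ratio 0.571), and of the sarcomere list 14 of 24 genes were above and 10 below (median ratio 1.49). With 1 pool there is no test.

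In whole trunk, the question was whether RNA levels of the members differ with the mettl3 morphant label. No member passed the test, although each had a fitted level below control. The pump gene atp2a1 had 9001 and 11002 CPM in inputs labelled mettl3 morphant, against 11395 and 13572 CPM in control inputs. The groups did not overlap for atp2a1, but the log2 difference was -0.32 with a standard error of 0.24. How many of all genes have groups that do not overlap was not counted, so overlap is given here as description only. The widest difference was that of atp2a1l, with 51.4 and 62.1 CPM in inputs labelled mettl3 morphant and 91.9 and 84.6 CPM in control inputs (log2 -0.66, SE 0.15, edgeR quasi-likelihood adjusted p = 0.9999).

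CACNA1S (ENSDARG00000029457) followed with 44.1 and 53.7 CPM in inputs labelled mettl3 morphant, against 68.1 and 60.6 CPM in control inputs (log2 -0.42, SE 0.16). CASQ1 (ENSDARG00000038716) had 130 and 148 CPM in inputs labelled mettl3 morphant, against 180 and 176 CPM in control inputs (log2 -0.37, SE 0.14). CACNA1S (ENSDARG00000042552) had 115 and 125 CPM, against 127 and 146 CPM in control inputs (log2 -0.18, SE 0.13). For these IDs, as for atp2a1l, the groups did not overlap either, without a count over all genes to set this against. For spegb the groups overlapped, with 108 and 153 CPM in inputs labelled mettl3 morphant and 138 and 151 CPM in control inputs (log2 -0.16, SE 0.13). CASQ1 (ENSDARG00000018105) overlapped as well, with 78.7 and 101.1 CPM against 99.6 and 100.1 CPM, as did CACNB1 with 54.3 and 77.4 CPM against 73.0 and 79.8 CPM. Each of the 8 members had an adjusted p of 0.9999.

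The test called 0.0% of 22561 genes in either direction in the inputs, with 290 genes, 3 of the 8 members among them, at an unadjusted p under 0.05, and DESeq2 called 1 gene, not a member. In simulated counts for this comparison the test recovered 42% of 2-fold and 79% of 4-fold changes. The median log2 difference was -0.28 over the 8 members, -0.10 over the 34 other excitation and calcium genes, of which 24 were fitted below control, -0.11 over the sarcomere list and 0.01 over all genes. RYR3, a further release channel, had the widest fitted decrease among the named list genes, with 232.6 and 298.3 CPM in inputs labelled mettl3 morphant and 388.3 and 394.4 CPM in control inputs (log2 -0.58, SE 0.15). Within replicate 1 the log2 ratio of CPM was below 0 for all 8 members, from -0.84 for atp2a1l to -0.14 for CACNA1S (ENSDARG00000042552). Within replicate 2 it lay between -0.45 for atp2a1l and 0.03 for spegb. METTL3 itself stood at -1.19 within replicate 1 and was higher under the mettl3 morphant label within replicate 2 (48.2 against 19.6 CPM).

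Enrichment in the m6A IP over its input was measured on whole-gene counts, relative to other genes after TMM scaling. Peaks and sites of the mark were not used, so a member that was lower or not called is not shown to be unmarked. No member was called enriched under either label, and the depletion calls were those of atp2a1l under both labels and of CACNB1 under the control label. With the replicate block, calls were also made for atp2a1 under both labels and, under the mettl3 morphant label, for CACNB1 (lower) and CACNA1S (ENSDARG00000029457) (higher). Of all 23163 genes, that block called 4469 higher and 4573 lower under the mettl3 morphant label. Under the control label it called 4594 higher and 4930 lower. The gene atp2a1l had 27.1 and 39.4 CPM in IPs labelled mettl3 morphant, against 51.4 and 62.1 CPM in their inputs. In controls it had 46.8 and 52.7 CPM in the IPs, against 91.9 and 84.6 CPM in the inputs. The IP libraries were below both inputs under each label, by log2 -0.85 under the mettl3 morphant label (SE 0.17, edgeR adjusted p = 0.00796) and by log2 -0.95 under the control label (SE 0.17, adjusted p = 0.00489). With total-count scaling atp2a1l missed the threshold under both labels (adjusted p = 0.0729 and 0.0535).

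CACNB1 had 47.9 and 55.6 CPM in IPs labelled mettl3 morphant, against 54.3 and 77.4 CPM in their inputs, and 54.5 and 62.5 CPM in control IPs, against 73.0 and 79.8 CPM in control inputs. Depletion of CACNB1 passed the test under the control label (log2 -0.49, SE 0.13, edgeR adjusted p = 0.0234) and missed it under the mettl3 morphant label (log2 -0.40, SE 0.13, adjusted p = 0.0523; with the replicate block adjusted p = 0.0200). Without any single one of the 4 control libraries CACNB1 was no longer called, at log2 -0.54 to -0.40. The pump gene atp2a1 had 6437 and 8733 CPM in IPs labelled mettl3 morphant, against 9001 and 11002 CPM in their inputs, and 7726 and 9817 CPM in control IPs, against 11395 and 13572 CPM in control inputs. Its depletion was log2 -0.47 under the mettl3 morphant label (adjusted p = 0.134) and -0.62 under the control label (adjusted p = 0.0582), and it was called under both with the replicate block (adjusted p = 0.0357 and 0.0135).

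The calsequestrin, pore subunit and kinase genes lay slightly above their inputs. Fitted log2 values of these 5 IDs were 0.09 to 0.31 under the mettl3 morphant label and 0.13 to 0.26 under the control label, with standard errors of 0.14 to 0.19. The highest was CACNA1S (ENSDARG00000029457), with 60.2 and 66.5 CPM in IPs labelled mettl3 morphant against 44.1 and 53.7 CPM in their inputs (log2 0.31, edgeR adjusted p = 0.259, with the replicate block 0.0373). In controls it had 88.2 and 76.7 CPM in the IPs, against 68.1 and 60.6 CPM in the inputs (log2 0.26, adjusted p = 0.344). Without the first control IP library, the fitted values of CASQ1 (ENSDARG00000018105), both CACNA1S IDs and spegb in controls turned to between -0.08 and -0.001.

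**Figure D4:**
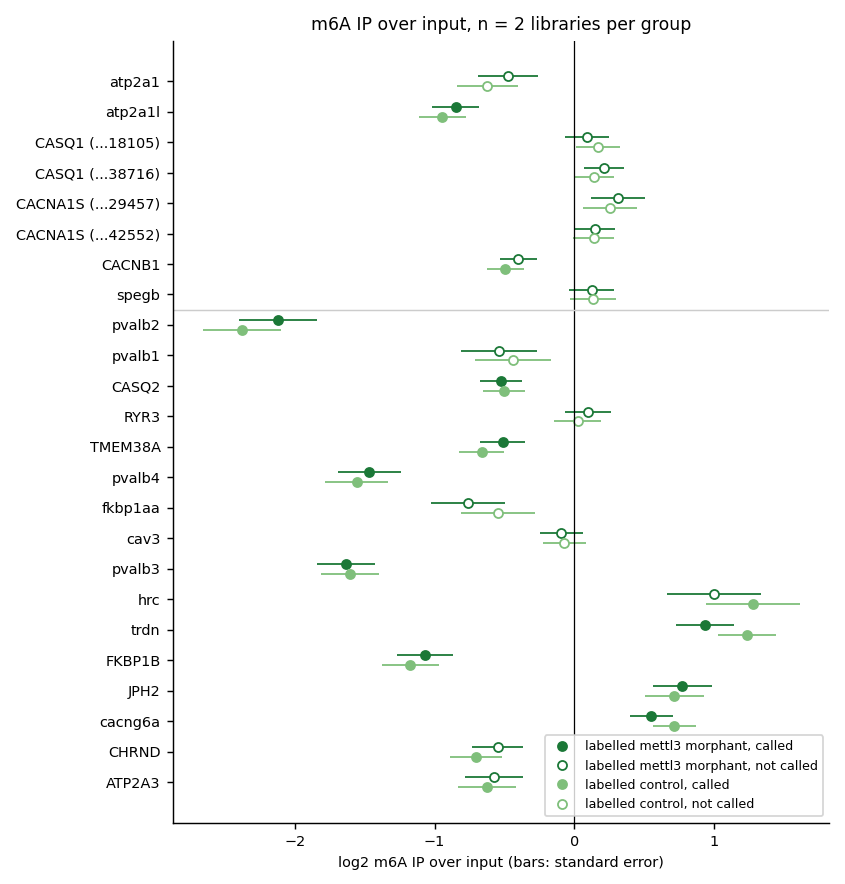
Log2 m6A IP over input with its standard error for each member (above the line) and for listed excitation and calcium genes of high level or called in controls, mettl3 morphant label above control label. Filled circles passed an edgeR adjusted p of 0.05. Of the members only atp2a1l under both labels and CACNB1 under the control label are filled, all to the left of 0.

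By this test 1 of 8 members was lower in the IP under the mettl3 morphant label, where 13.5% of 23163 genes were called lower and 13.3% higher. Under the control label 2 of 8 were lower, where 14.8% were called lower and 13.9% higher. The members' share is near or under that background in the mettl3 morphant label and rests on 2 genes in controls. With total-count scaling, which moved the median of all genes from -0.03 to 0.09 in controls, no member was called, 2111 genes were called under the mettl3 morphant label (1151 higher, 960 lower) and 2662 under the control label (1685 higher, 977 lower).

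Calls among the other listed excitation and calcium genes went in both directions. Of these 34 genes, 4 were called higher and 8 lower in the IP under the mettl3 morphant label, and 4 higher and 9 lower under the control label. Over all genes 13.3% were called higher and 13.5% lower under the mettl3 morphant label, and 13.9% and 14.8% under the control label. The list was not tested against these shares. With the replicate block 15 and 18 of the 34 genes were called under these labels, and with total-count scaling 6 and 7. Over all genes the block called 4469 higher and 4573 lower under the mettl3 morphant label. It called 4594 higher and 4930 lower under the control label. Triadin was among the enriched genes, with trdn at 283.5 and 483.7 CPM in IPs labelled mettl3 morphant against 180.8 and 195.9 CPM in their inputs (log2 0.93, SE 0.21, edgeR adjusted p = 0.0125). In controls trdn had 372.2 and 547.8 CPM in the IPs, against 176.8 and 179.4 CPM in the inputs (log2 1.24, SE 0.21, adjusted p = 0.00424). JPH2, a junctophilin that holds the tubule and store membranes together, was enriched as well, by log2 0.77 under the mettl3 morphant label and 0.72 under the control label, and cacng6a, a gamma subunit gene of calcium channels, by 0.55 and 0.71.

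Of the parvalbumin genes, pvalb2, pvalb3 and pvalb4 were called lower and pvalb1 was not (log2 -0.54 under the mettl3 morphant label and -0.44 under the control label). The transcript of pvalb2 had 223.8 and 407.8 CPM in IPs labelled mettl3 morphant, against 1170 and 1414 CPM in their inputs (log2 -2.12, SE 0.28, edgeR adjusted p = 0.00222). In controls pvalb2 had 233.2 and 439.6 CPM in the IPs, against 1323 and 1868 CPM in the inputs (log2 -2.38, SE 0.28, adjusted p = 0.00164). The genes pvalb3 and pvalb4 were depleted by log2 -1.63 and -1.47 under the mettl3 morphant label and by -1.61 and -1.56 under the control label. TMEM38A was called lower under both labels (log2 -0.51 and -0.66), and so was CASQ2 (log2 -0.52 and -0.51).

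Whether enrichment itself differed between the labels was tested as an interaction. The change, mettl3 morphant minus control, lay between -0.08 for CASQ1 (ENSDARG00000018105) and 0.15 for atp2a1 on the log2 scale, with standard errors of 0.19 to 0.30, and no member was called. The test called 0.0% of 23163 genes, with 72 at an unadjusted p under 0.05, and DESeq2 called 1. In simulated counts for this comparison it recovered 9% of 2-fold and 61% of 4-fold changes. Those changes were set in genes drawn at random from all tested, so recovery at the members' own levels was not measured. A missing call does not show that a member's enrichment was unchanged.

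Ythdf2 RIP was set against control inputs, since no input of the injected embryos was analysed here. No member was called, and the 2 CASQ1 IDs lay on opposite sides of 0. CASQ1 (ENSDARG00000038716) had 125.4 and 117.6 CPM in the RIP libraries, against 180.0 and 175.8 CPM in control inputs. CASQ1 (ENSDARG00000018105) had 12.5 and 17.6 CPM in the RIP libraries, against 99.6 and 100.1 CPM in control inputs. The RIP libraries are below the inputs for both, as they are for most genes in CPM: with total-count scaling the median log2 of all genes was -2.12, and 14291 genes were called lower and 379 higher. Relative to other genes after TMM scaling, CASQ1 (ENSDARG00000038716) was at log2 1.37 (SE 0.56, edgeR adjusted p = 0.126) and CASQ1 (ENSDARG00000018105) at -0.82 (SE 0.46, adjusted p = 0.235). DESeq2 called CASQ1 (ENSDARG00000038716) higher (log2 1.45, adjusted p = 0.00109). The difference between these 2 IDs was not tested. In counts, the ratio of CASQ1 (ENSDARG00000018105) to its duplicate was 0.0999 and 0.150 in the RIP libraries and 0.553 and 0.569 in control inputs.

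None of the other members was called either. The kinase gene spegb had 48.6 and 55.8 CPM in the RIP libraries, against 138 and 151 CPM in control inputs (log2 0.45, SE 0.49, edgeR adjusted p = 0.536). The pump gene atp2a1 had 2636 and 1799 CPM in the RIP libraries, against 11395 and 13572 CPM in control inputs (log2 -0.56, SE 0.74, adjusted p = 0.618), and atp2a1l had 14.05 and 12.1 CPM, against 91.9 and 84.6 CPM (log2 -0.84, SE 0.46). The voltage sensor genes were at -0.32 for CACNA1S (ENSDARG00000029457), -0.12 for CACNA1S (ENSDARG00000042552) and -0.80 for CACNB1, each with a standard error of 0.44 to 0.48.

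Of 21005 genes, 6.31% were called higher and 5.67% lower. An unadjusted p under 0.05 was found for 7534 of these genes and for 1 of the 8 members. In simulated counts for this comparison the test recovered 0% of 2-fold and 35% of 4-fold changes. The changed genes were drawn at random from all genes tested, so recovery at the members' own levels was not measured. A missing call does not show that a member was equal in RIP and input. With a RIP library left out, the other is alone in its group and is assumed to vary as the 2 control inputs do. Calls in such a fit rest on the spread of the inputs alone, so only fitted values are given here. CASQ1 (ENSDARG00000038716) was at log2 1.12 without the first RIP library and at 1.41 without the second. In the same order, CASQ1 (ENSDARG00000018105) was at -0.78 and -1.08, atp2a1l at -1.15 and -0.74, and CACNB1 at -0.76 and -1.05. Without the first RIP library atp2a1 was at -1.06 and CACNA1S (ENSDARG00000042552) at -0.50. With the first or the second control input left out no member was called. With total-count scaling 7 members were called, all lower, where 14291 of the 21005 genes were called lower and 379 higher. In that fit CASQ1 (ENSDARG00000038716) and spegb turned to log2 -0.55 and -1.47. The share of reads outside annotated genes, 42.9% and 43.8% in the RIP libraries against 13.5% and 12.5% in control inputs, moved with the comparison, and its part was not tested.

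**Figure D5:**
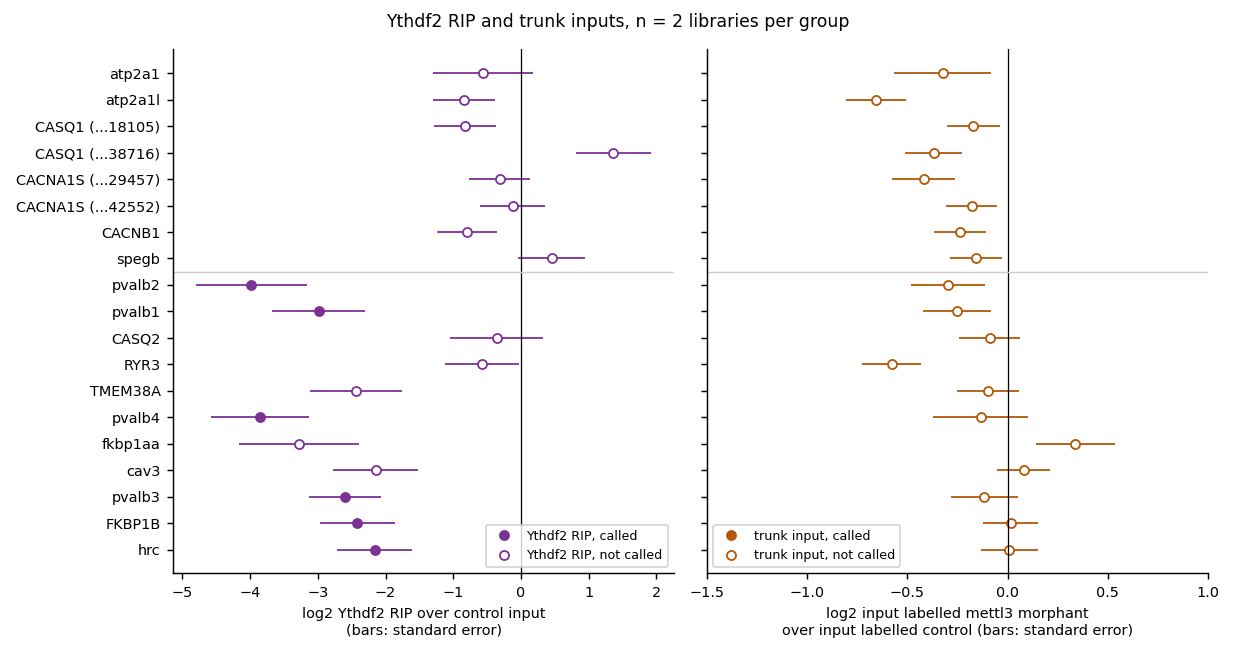
Log2 values with standard errors for the members (above the line) and for listed excitation and calcium genes of high level or called in RIP, for Ythdf2 RIP over control input on the left and for trunk input labelled mettl3 morphant over control on the right. Filled circles passed an edgeR adjusted p of 0.05. No member is filled, and CASQ1 (ENSDARG00000038716) is the member farthest to the right in RIP at 1.37.

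Of the 34 other listed genes, 0 were called higher in RIP and 7 lower. They included 4 parvalbumin genes, with pvalb2 at 38.5 and 13.1 CPM in the RIP libraries against 1323 and 1868 CPM in control inputs (log2 -3.98, SE 0.82, edgeR adjusted p = 0.0366). The others were hrc (log2 -2.16), FKBP1B (log2 -2.42), which encodes an immunophilin that binds ryanodine receptors, and fkbp1ab, which had 0 counts in both RIP libraries. None of these 7 calls held with the first or the second control input left out. The median over the 34 genes was -0.93, against -0.44 over the members and -0.19 over all genes.

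Across the 3 pools and the 10 other libraries, the members varied together to different degrees. Pearson correlations of log2(CPM + 1) between pairs of members ranged from 0.39 to 0.98 with a median of 0.82, over 13 samples that share assays, depth and labels and are described without a test. The 3 pools that guided the choice of the members are among them, so the correlations and the likeness below are not independent of that choice. Likeness to the members' mean profile was computed for the 17922 IDs with a mean of at least 1 CPM, and only non-members with a symbol were ranked. The 5 highest were MYOM1 (r = 0.993), which encodes an M-band protein of the sarcomere, mical2b (0.989), NEB (0.989), which encodes nebulin of the thin filament, cand2 (0.989) and FRMD1 (0.987). MYOM1 had 6.84 CPM in the pool labelled mettl3 morphant, 78.4 CPM in the pool labelled ythdf2 morphant and 420 CPM in the control pool.

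In the order of levels, the control endothelial pool ranked first for atp2a1, atp2a1l and CASQ1 (ENSDARG00000018105). Control IPs ranked first for CASQ1 (ENSDARG00000038716), both CACNA1S IDs and spegb, and control inputs for CACNB1. The pool labelled mettl3 morphant ranked last for 6 of the 8 IDs, the pool labelled ythdf2 morphant for atp2a1l and the RIP libraries for CASQ1 (ENSDARG00000018105). Neighbouring groups whose libraries overlapped included control IPs and inputs labelled mettl3 morphant for atp2a1 and atp2a1l. For CACNB1 the first 5 groups in the order, control inputs, the control pool, inputs labelled mettl3 morphant, control IPs and IPs labelled mettl3 morphant, each overlapped the next.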

How the data were processed

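Zebrafish trunk RNA was analysed from raw counts per gene that the authors deposited for 16 libraries, aligned by TopHat2 2.0.9 and counted by HTSeq (version 0.5.3p9 is named for some), per the submitters' processing notes. The sources used here name no build, annotation or strand setting, and reads of near-identical duplicates (the CASQ1, CACNA1S and SERCA genes) could be split between IDs. Symbols came from a table covering 21939 of 33737 IDs. Lists of peaks and sites, and the 2 miCLIP samples, were not used.

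For MeRIP and RIP libraries edgeR 4.0.16 was run (quasi-likelihood test, TMM, filterByExpr, Benjamini-Hochberg threshold 0.05) in R 4.3.3, on 4 libraries (inputs; RIP) or 8 (IP). All 8 members passed the filter in every fit. Standard errors given with edgeR values were computed as the absolute log2 value over the square root of the quasi-likelihood F statistic. Endothelial counts were planned as replicates only if libraries differed beyond sampling noise. They were summed, TMM-scaled and compared as ratios with exact 95% binomial intervals, which cover counting error only. Genes with 20 counts in any of the 3 pools were kept, and a pool with 0 counts was given the floor of 3 counts. The fits were tested on simulated data.

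MeRIP replicate numbers also mark read length (151 and 101 bp), and same-numbered libraries deviated together (correlation 0.52, 0.33 and 0.42), so values with a replicate block are given where a call changed. Alternatives were DESeq2 1.42.0, other scalings, no filter, the block and leaving out each library. Members, lists and tests were chosen with earlier results of these data known. Named list genes were the 8 of highest level in control inputs and up to 8 called per comparison with the largest differences. Where outside that rule, RYR1, CHRNG, COLQ, CASQ2, ATP2A2, atp2a2a, ATP2A3, TNNT1, MYBPC1, mb, MYOD1, MYF5, cdh5, KDR and krt8 were named after their values were seen.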

Additional observations from a re-analysis of the deposited data

How the results depend on the processing

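Among the members, pool ratios kept their direction with total-count scaling and with either endothelial library alone, and 8 and 6 members stayed at least 2-fold lower. Over all genes, inputs gave 0 calls, 1 with DESeq2, 2 with total-count scaling, 2 with the replicate block and 0 to 19 with 1 library left out (19 without the second and 4 without the first input labelled mettl3 morphant). In control IPs, members called numbered 2, 0 with total-count scaling and 1 to 1 with 1 library left out, and genes called 6633, 2662 and 2380 to 3800. Under the mettl3 morphant label, members called numbered 1, 2 with DESeq2, 0 with total-count scaling and 4 with the replicate block, and genes called 6211, 2111 with total-count scaling and 3175 to 5052 with 1 library left out. The change of enrichment gave 1 gene with DESeq2 and 0 to 1 with 1 library left out, and its lowest member value of -0.08 ranged from -0.29 to 0.0594 (without the second and the first control IP). In RIP, members called numbered 0, 1 with DESeq2, 7 with total-count scaling and 0 to 6 with 1 library left out, and genes called 2518, 5238, 14670 and 285 to 11334, with 5482 when no filter was set and 3091 with the replicate block, whose numbers did not pair RIP with input (correlation -0.002).

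Directions turned under some alternative for 6 of the 8 members, all but atp2a1 and atp2a1l. With 1 library left out, the lone library of its group is assumed to vary like the other groups. In control IPs with 1 library left out, CASQ1 (ENSDARG00000018105) ranged from -0.033 to 0.39, CACNA1S (ENSDARG00000029457) from -0.012 to 0.53, CACNA1S (ENSDARG00000042552) from -0.0013 to 0.31 and spegb from -0.079 to 0.36, each lowest without the first control IP and highest without the second. In RIP, CASQ1 (ENSDARG00000038716) and spegb were at -0.55 and -1.47 with total-count scaling, CACNA1S (ENSDARG00000029457) at 0.14 against inputs labelled mettl3 morphant and at -0.44 to 0.084 with 1 library left out, and CACNA1S (ENSDARG00000042552) at -0.50 to 0.057 with 1 library left out and at 0.0867 against inputs labelled mettl3 morphant. The control pool over trunk ratio of CACNB1 was 1.08 with TMM and ranged from 0.918 to 1.003 with 1 control input left out; without the second, 4 members were lower and not 5. The replicate block changed no other member's call. The causes were not tested. Counts of 0 or 1 in a pool limit how low a member can be placed.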

Other observations

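Genes of the contractile lattice did not all stand in the same order across pools, and neither did the members. The fast myosin gene myhz1.1 had 508 CPM in the pool labelled mettl3 morphant, 1397 CPM in the pool labelled ythdf2 morphant and 6093 CPM in the control pool. The myosin light chain gene myl10 had 24.5, 768 and 256 CPM in these pools, and actn2b, an alpha-actinin gene, had 19.0, 114 and 21.0 CPM. Both were higher under the ythdf2 label than in the control pool, as CACNA1S (ENSDARG00000029457) was. On TMM-scaled counts the log2 ratios of myl10 and actn2b were 1.39 and 2.25. The titin cap gene tcap had 804.5 CPM in the control pool, 187 times its mean in control trunk inputs, while the sarcomere list had a median ratio of 1.49. These genes were picked after their values were seen.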
